A study of Mus musculus with 12 samples.

Results

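The genes described here encode the aminoacyl-tRNA synthetases of mouse and the 3 scaffold proteins that hold some of them together, measured by RNA-seq in cultured hepatocytes. They were picked by a rule on gene symbols that uses no measured value, though it was set with earlier results of these data known. It takes symbols made of a 1-letter amino acid code followed by "ars", with or without a 1 or 2. Farsa, Farsb, Eprs, Aimp1, Aimp2 and Eef1e1 are added to these. The rule found 40 genes among the 16728 genes of the deposited table, and all 40 were expressed highly enough to be tested among the 12275 genes that passed a filter on low counts. They comprise 8 enzymes of the cytosolic multisynthetase complex, the 3 scaffold proteins of that complex, 12 other cytosolic enzymes and 17 mitochondrial enzymes.

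The cells were labelled as primary hepatocytes of C57BL/6 mice, either wild type (WT) or lacking the nuclear bile acid receptor Fxr (Fxr-/-, called KO here). Each genotype received AC or FAC, both at 100 µM for 24 h. The labels give these agents only by their abbreviations, so FAC was compared with AC as the labels name them, and all 12 libraries came from cells that had received one or the other. Genotype and agent together make 4 groups of 3 libraries (WT AC, WT FAC, KO AC and KO FAC), with 1 to 3 as the library numbers for AC and 4 to 6 for FAC. All cells were kept in DMEM with foetal bovine serum. No label states if libraries of one group came from separate mice or cultures, nor how the Fxr allele was made, so the p-values below measure only the spread between these libraries.

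An aminoacyl-tRNA synthetase joins one amino acid to its matching tRNA, the step that gives the genetic code its meaning. Most amino acids have a cytosolic enzyme and a separate mitochondrial enzyme, whose gene symbol usually ends in 2, and both are made from nuclear genes. Kars and Gars each encode both forms, and Eprs encodes a fused enzyme for glutamate and proline. In vertebrates several cytosolic enzymes sit in one large complex around the scaffold proteins Aimp1, Aimp2 and Eef1e1. Many cytosolic synthetase genes are known targets of Atf4, the transcription factor of the integrated stress response, which binds composite C/EBP-ATF elements with a TGATGNAA core. The liver uses charged tRNA heavily, since hepatocytes make most plasma proteins.

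The promoters are shown because that element can be looked for in their letters. RefSeq promoter sequences on GRCm38.p6, from 250 bases before the transcription start to 50 bases from it (300 bases), were at hand for 30 of the 40 genes. Those of the other 10, among them Cars, Hars, Hars2, Lars, Nars, Pars2, Rars, Vars and Wars, were not used here. TGATGNAA was searched on both strands, where the antisense match reads TTNCATCA. A match was found in 5 of the 30 promoters (16.7%), against 4.51% of 27025 promoters of the same length and 2.85% of the 9853 that belong to tested genes. All 5 belong to cytosolic enzymes, of which 13 had a sequence, and 0 of 14 mitochondrial enzymes had a match. A match describes letters and not a bound site. The 5 promoters with a match are printed first, and those of Eprs and Sars, which had none, follow because Eprs was the member with the largest fall in KO cells and Sars rose with FAC in both genotypes. Each window runs 5′ to 3′ on the gene's strand from 150 bases before the start to 20 bases from it (170 bases), with the matched letters in capitals.
Aars, chr8:111033692-111033861, plus strand: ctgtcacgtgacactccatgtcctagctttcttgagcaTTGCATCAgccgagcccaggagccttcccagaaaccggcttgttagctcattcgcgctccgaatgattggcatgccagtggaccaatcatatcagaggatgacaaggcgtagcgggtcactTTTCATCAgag
Gars, chr6:55037851-55038020, plus strand: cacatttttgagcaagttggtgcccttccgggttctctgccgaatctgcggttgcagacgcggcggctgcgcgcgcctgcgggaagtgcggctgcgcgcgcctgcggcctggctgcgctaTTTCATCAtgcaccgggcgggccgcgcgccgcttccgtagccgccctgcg
Iars, chr13:49681980-49682149, plus strand: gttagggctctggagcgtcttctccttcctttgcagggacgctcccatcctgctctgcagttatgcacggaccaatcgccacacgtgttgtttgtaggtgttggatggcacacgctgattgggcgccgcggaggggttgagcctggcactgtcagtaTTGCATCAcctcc
Tars, chr15:11399639-11399808, minus strand: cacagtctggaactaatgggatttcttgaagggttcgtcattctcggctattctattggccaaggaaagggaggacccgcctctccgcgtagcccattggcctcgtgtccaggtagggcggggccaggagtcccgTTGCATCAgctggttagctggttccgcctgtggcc
Yars, chr4:129189753-129189922, plus strand: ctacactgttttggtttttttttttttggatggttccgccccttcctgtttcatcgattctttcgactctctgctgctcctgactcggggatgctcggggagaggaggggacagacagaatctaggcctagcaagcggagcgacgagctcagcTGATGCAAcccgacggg
Eprs, chr1:185362894-185363063, plus strand: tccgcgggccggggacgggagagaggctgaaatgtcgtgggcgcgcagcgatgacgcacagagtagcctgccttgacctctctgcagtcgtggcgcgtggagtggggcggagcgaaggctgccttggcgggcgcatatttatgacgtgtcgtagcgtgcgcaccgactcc
Sars, chr3:108445240-108445409, minus strand: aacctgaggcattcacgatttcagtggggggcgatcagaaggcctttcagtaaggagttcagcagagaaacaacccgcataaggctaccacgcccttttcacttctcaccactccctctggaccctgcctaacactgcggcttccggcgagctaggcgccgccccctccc

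Aars had 2 matches, at −112 to −105 and at 9 to 16, counting the first transcribed base as 0. The match of Gars lay at −30 to −23, that of Tars at −15 to −8 and that of Iars at 7 to 14, all reading antisense. Yars had its match at 3 to 10 in the sense direction. The windows printed for Aars, Eprs and Yars lie inside the annotated intervals of these genes. The starts counted from are thus not the outermost ones annotated.

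Levels can be compared between genes only per length, here in FPKM, which scales fragments to gene length and library size (means over the 12 libraries). Nars, for asparagine, had the highest level at 168 FPKM and was above the next gene, Gars for glycine (125 FPKM), in all 12 libraries. Rars for arginine (117 FPKM), the scaffold Aimp1 (93.2 FPKM) and Sars for serine (91.7 FPKM) came next. The lowest was Mars2, the mitochondrial methionine enzyme, at 1.49 FPKM. The median level was 54.1 FPKM for the complex enzymes, 47.2 FPKM for the other cytosolic enzymes, 55.1 FPKM for the scaffolds and 5.55 FPKM for the mitochondrial enzymes. In the order of levels, Nars over Gars, Iars over Farsb, Fars2 over Rars2, Ears2 over Lars2 and Wars2 over Mars2 held in all 12 libraries, and the other neighbours traded places in at least 1 library.

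**Figure D1:**
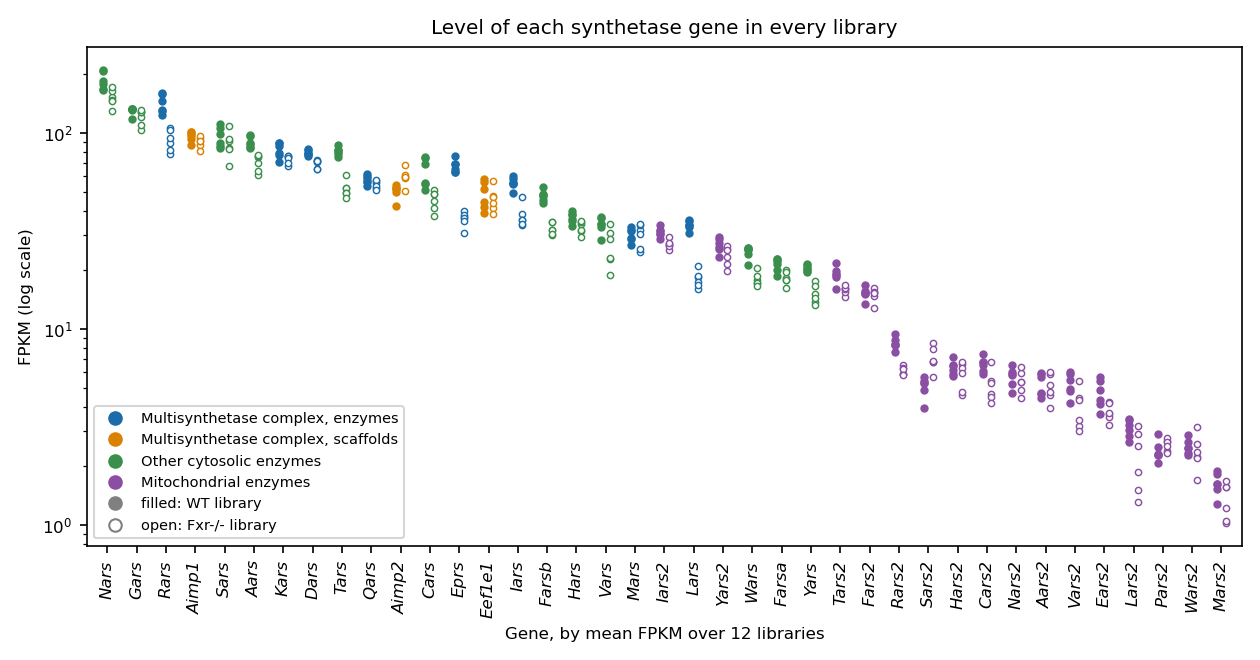
FPKM (log axis) of each reported gene in each of the 12 libraries, with genes ordered by their mean FPKM and coloured by role, and with filled points for WT and open points for KO. The cytosolic enzymes and scaffolds average 17.8 to 168 FPKM, above most of the mitochondrial enzymes.

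For 14 amino acids with separate enzymes, the ratio of the cytosolic to the mitochondrial gene's FPKM ran from 30.5 for Nars over Nars2 (21.8 to 35.6 across libraries) down to 0.705 for Yars over Yars2 (0.534 to 0.837), the pair in which the mitochondrial gene was higher. The Lars to Lars2 ratio averaged 10.2 in WT AC, 11.7 in WT FAC, 6.45 in KO AC and 11.6 in KO FAC. That ratio was lowest in KO AC, where Lars was low and Lars2 was not.

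The libraries held 16464494 to 18335700 estimated reads, of which the 40 genes took 0.408 to 0.446% in WT and 0.305 to 0.357% in KO. Values compared between groups are CPM, a gene's reads scaled to library size with TMM, edgeR's correction for library composition. The targeted gene, Nr1h4 (Fxr), was not absent from the KO libraries, which held 58 to 163 of its reads. It stood at 13.0, 15.6 and 13.1 CPM in WT AC, 6.9997, 6.95 and 7.69 CPM in WT FAC, 9.35, 6.97 and 7.45 CPM in KO AC, and 3.54, 4.45 and 4.89 CPM in KO FAC. It was lower in KO by 0.81 ± 0.14 on the log2 scale under AC (edgeR adjusted p = 0.000535) and by 0.75 ± 0.16 under FAC (edgeR adjusted p = 0.00157), and the KO AC libraries sat near those of WT FAC. A count over the whole gene cannot show which exons were read, and the labels do not give the deleted part, so KO here means libraries labelled Fxr-/-. The KO libraries divide along the third principal component of all genes in a way that crosses treatment. KO AC 1, KO FAC 5 and KO FAC 6 scored 13.5, 3.26 and 27.7, while KO AC 2, KO AC 3 and KO FAC 4 scored −14.6, −9.64 and −22.7. Results that rest on KO libraries are therefore also given with a pair of libraries left out, either KO AC 1 with KO FAC 4 or KO AC 1 with KO FAC 6. The hepatocyte label was checked against 8 marker genes. Alb averaged 9384 to 14825 FPKM by group, and the markers other than Alb, Cps1 and Tat had group means from 77.4 to 2415 FPKM. Cps1 averaged only 0.663 to 4.35 FPKM and Tat 1.26 to 12.02 FPKM, so Cps1 and Tat, markers of mature hepatocytes, were low.

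The first comparison set KO cells beside WT cells within each treatment. Synthetase genes that differed were mostly lower in KO cells. Eprs and Lars were the furthest below WT under both treatments. Rars and Iars came next under AC, and Lars2 and Tars under FAC. Under AC, 14 of the 40 genes were lower and 0 higher in KO (edgeR's quasi-likelihood test, Benjamini-Hochberg adjusted p under 0.05 over all tested genes), which is 35% called. Among all tested genes 42.9% were called, 21.2% lower and 21.7% higher. Under FAC, 15 were lower and 2 higher (42.5%), against 49.5% of all tested genes, 24.9% lower and 24.6% higher. Read without a test, the libraries of the 2 genotypes did not overlap for 25 of the 40 genes under AC (19 lower and 6 higher, 62.5% against 53% of all tested genes) and for 22 under FAC (18 lower and 4 higher, 55% against 59.1%). The total share of synthetase genes called was thus below the background in both comparisons, while the split between directions was not even as it was for all genes. The median log2 fold change of the 40 was −0.15 under AC and −0.16 under FAC, against −0.00 and −0.01 for all tested genes. The AC and FAC comparisons use different libraries. The 11 genes lower under both were Aars, Cars, Eprs, Farsb, Iars, Lars, Rars, Rars2, Tars, Wars and Yars.

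**Figure D2:**
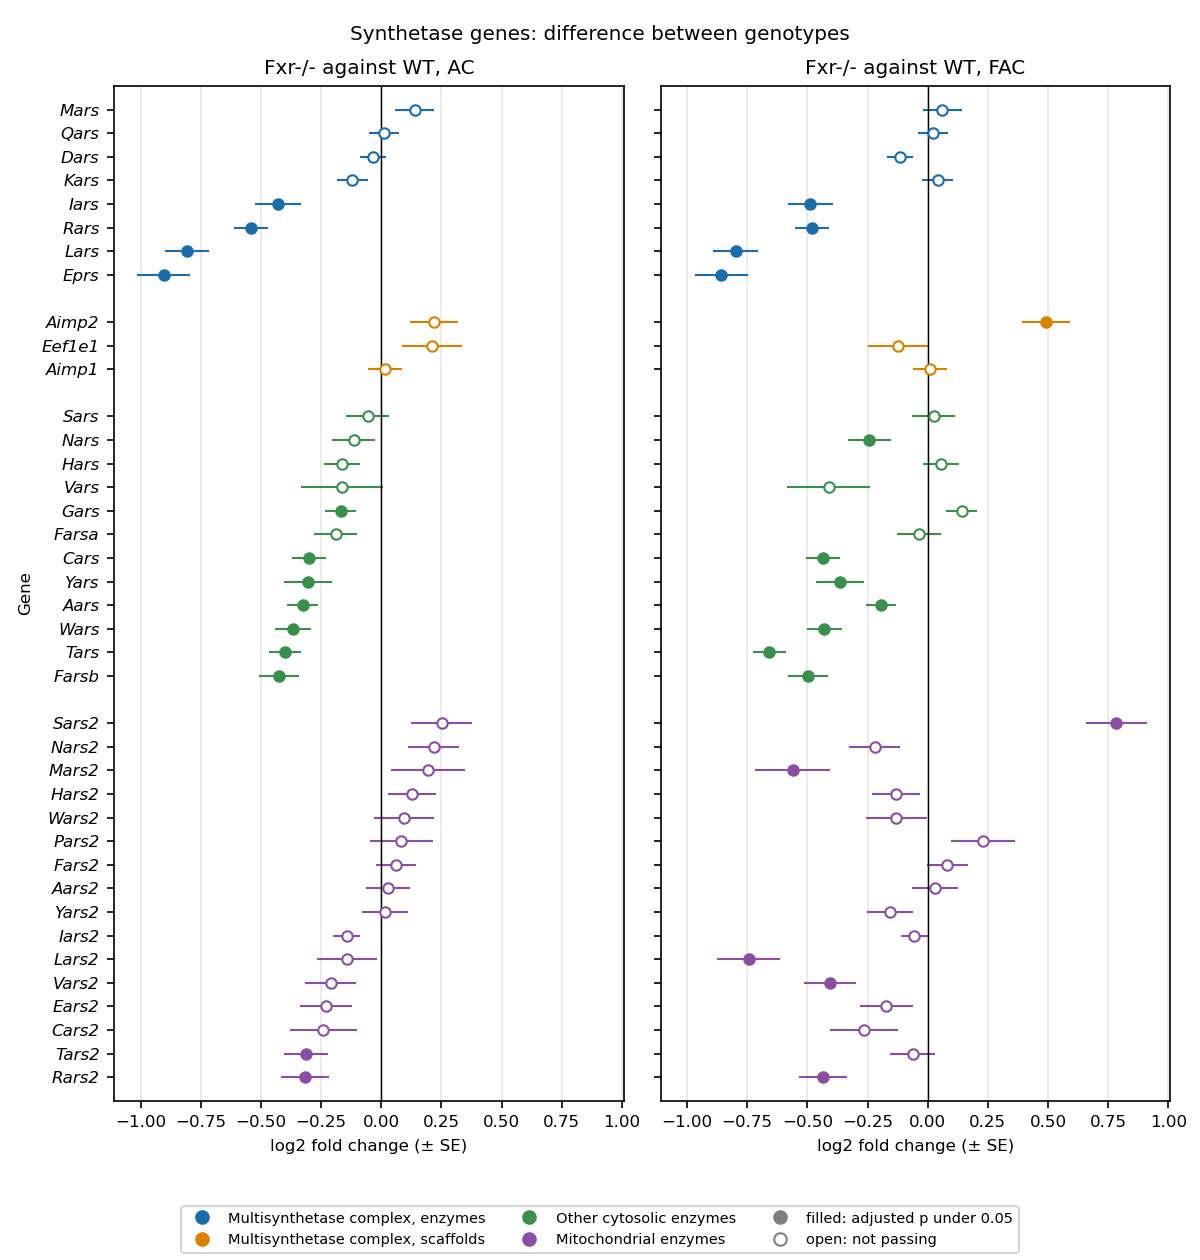
Log2 fold change between KO and WT cells for each reported gene, ordered by role, in AC and in FAC; bars are ± 1 SE and filled points have an edgeR adjusted p under 0.05. Eprs and Lars lie farthest to the left among cytosolic genes under both treatments, at −0.90 and −0.81 under AC, and Sars2 lies farthest to the right under FAC at 0.78.

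Cell type markers moved with genotype as well. In KO cells 7 of 8 hepatocyte markers were higher and Alb was lower, under both treatments, with Cyp2e1 higher by 2.68 ± 0.09 (SE) on the log2 scale under AC and 3.12 ± 0.09 under FAC. The summed FPKM of the 8 markers was 13295 to 13681 in WT AC and 14130 to 15129 in KO AC, and 17696 to 18733 in WT FAC and 17738 to 19150 in KO FAC. Of 5 sinusoidal endothelial markers tested, 3 were lower and Stab2 was higher in KO, with the 6 listed genes summing to 3.85 to 7.56 FPKM in WT and 2.93 to 3.58 FPKM in KO. Of 3 stellate cell or fibroblast markers tested, 2 were lower in KO, and the 5 listed genes summed to 1.03 to 1.57 FPKM in WT and 0.34 to 0.61 FPKM in KO. Of 4 macrophage markers tested, Adgre1 and Marco were lower and Cd68 higher. Clec4f was too low to be tested in either genotype, at 0.0267 FPKM in WT AC, 0.01 FPKM in WT FAC and 0 in all KO libraries. The cholangiocyte markers summed to 12.5 to 15.3 FPKM in WT and 16.8 to 38.3 FPKM in KO. The part of these cells in the synthetase results was not tested, and in bulk samples fewer cells of a type and less RNA per cell cannot be told apart.

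Among the 8 enzymes of the multisynthetase complex, Eprs, Lars, Rars and Iars were lower in KO under both treatments and the other 4 did not pass the test. The median log2 fold change of the 8 was −0.27 under AC and −0.30 under FAC. Eprs (gene 107508, chromosome 1: 185361417 to 185428360) charges the tRNAs for glutamate and proline. It stood at 319.9, 254 and 262 CPM in WT AC, 255, 284 and 274 CPM in WT FAC, 126, 147 and 174 CPM in KO AC, and 156, 147 and 146 CPM in KO FAC. All 6 KO libraries lay below all 6 WT libraries. The fall was 0.90 ± 0.11 (SE, n = 3 against 3) on the log2 scale under AC (edgeR adjusted p = 3.17e-05) and 0.86 ± 0.11 under FAC (edgeR adjusted p = 3.41e-05).

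Lars (gene 107045, chromosome 18: 42202298 to 42262237) charges leucine tRNA and also reports leucine to the mTORC1 growth pathway. Its libraries read 123, 119 and 115 CPM in WT AC, 128, 122 and 110.4 CPM in WT FAC, 59.0, 68.6 and 76.6 CPM in KO AC, and 74.4, 68.4 and 64.1 CPM in KO FAC. Again no KO library reached a WT library. Lars fell by 0.81 ± 0.09 on the log2 scale under AC (edgeR adjusted p = 1.55e-05) and by 0.80 ± 0.09 under FAC (edgeR adjusted p = 1.24e-05).

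Rars (gene 104458, chromosome 11: 35808381 to 35834528) charges arginine tRNA. Its values were 243, 248 and 234 CPM in WT AC, 309.9, 311 and 285 CPM in WT FAC, 158, 165 and 175 CPM in KO AC, and 229.6, 223 and 196 CPM in KO FAC. Within each treatment the KO libraries were all lower, and within each genotype the FAC libraries were all higher, so that the KO FAC libraries came close to those of WT AC. The KO fall was 0.54 ± 0.07 on the log2 scale under AC (edgeR adjusted p = 4.4e-05) and 0.48 ± 0.07 under FAC (edgeR adjusted p = 8.28e-05). Iars (gene 105148, chromosome 13: 49682130 to 49734267), the isoleucine enzyme whose promoter holds a match just past its start, had 238, 225 and 226 CPM in WT AC, 242, 233 and 207 CPM in WT FAC, 147, 166 and 199 CPM in KO AC, and 168, 164 and 154 CPM in KO FAC. Its KO libraries were all below its WT libraries, with KO AC 3 the closest. Iars fell by 0.43 ± 0.09 on the log2 scale under AC (edgeR adjusted p = 0.00268) and by 0.49 ± 0.10 under FAC (edgeR adjusted p = 0.000835).

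The other 4 complex enzymes are Dars for aspartate, Kars for lysine, Mars for methionine and Qars for glutamine. Under AC their log2 fold changes were −0.03 for Dars (95% interval −0.15 to 0.08), −0.12 for Kars (−0.26 to 0.02), 0.14 for Mars (−0.04 to 0.32) and 0.01 for Qars (−0.12 to 0.15). None of these intervals reaches the fall measured for Iars. Under FAC they were −0.12 for Dars (edgeR adjusted p = 0.0851), 0.04 for Kars, 0.06 for Mars and 0.02 for Qars. Of the 8 complex enzymes, 4 thus fell and 4 did not pass the test. That is 50% called, against 42.9% of all tested genes under AC and 49.5% under FAC. The total share called is near the background, so the split is no result about the complex. All 4 calls were lower, against 21.2% and 24.9% of all tested genes lower. The plot of the complex by library shows both sets.

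**Figure D3:**
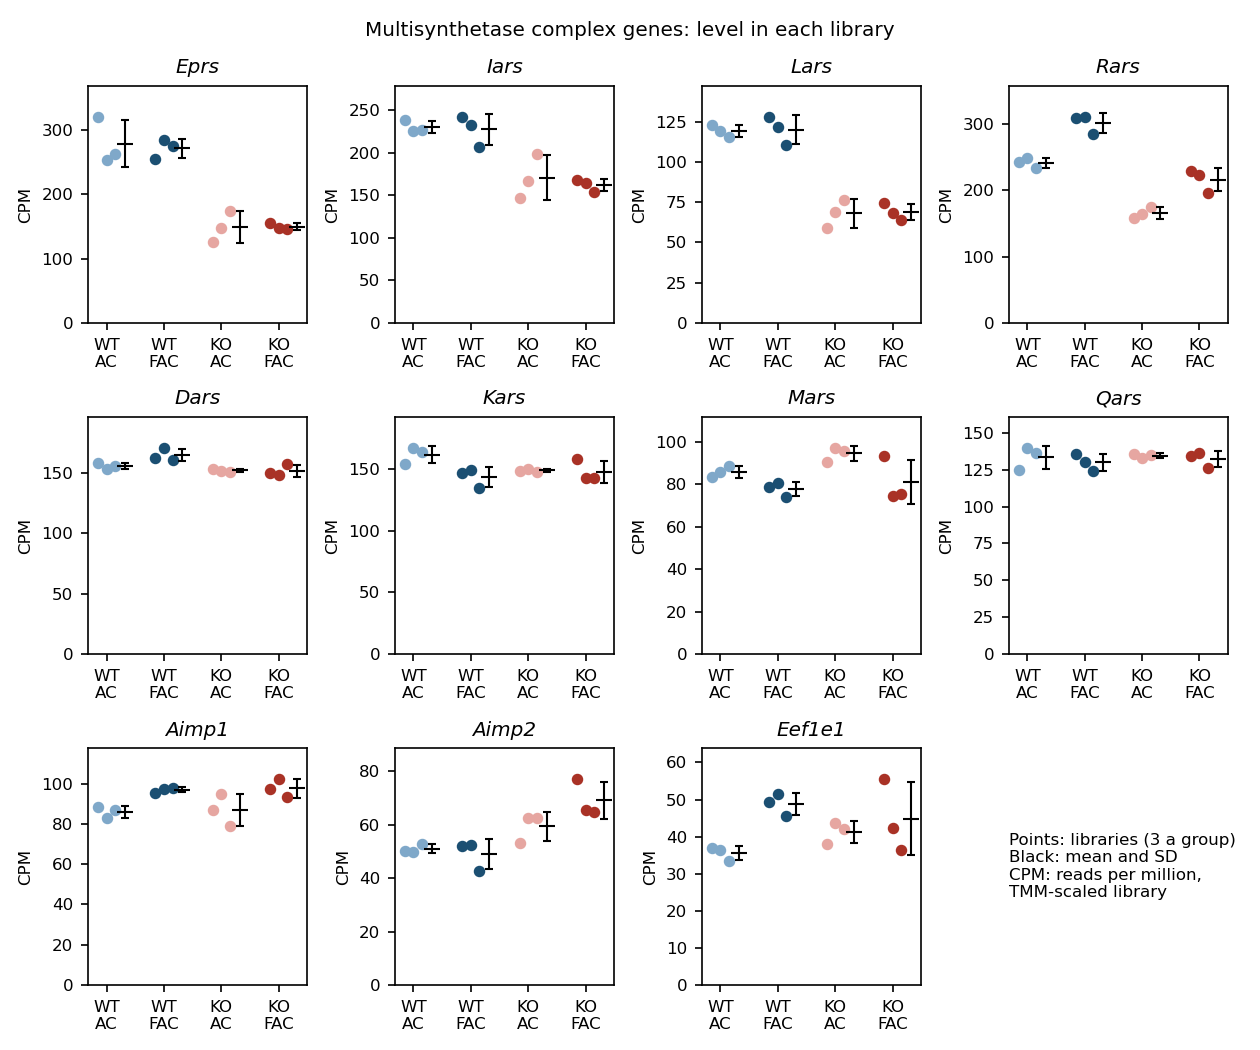
CPM in each of the 12 libraries for the 8 enzymes and 3 scaffold proteins of the multisynthetase complex, by group, with the mean and SD (n = 3) in black. For Eprs and Lars the 6 KO libraries lie below the 6 WT libraries, while the libraries of Qars overlap between genotypes.

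Of the 3 scaffold genes, 0 were called lower in KO by edgeR with all libraries, and 1 was called higher under FAC. Aimp1 (gene 13722, chromosome 3: 132660498 to 132684390), which binds tRNA and several enzymes of the complex, had 88.3, 82.9 and 86.7 CPM in WT AC, 95.6, 97.4 and 97.8 CPM in WT FAC, 86.8, 94.6 and 79.0 CPM in KO AC, and 97.3, 102 and 93.2 CPM in KO FAC. The genotypes overlapped under both treatments, with a log2 difference of 0.01 under AC (edgeR adjusted p = 0.883) and 0.01 under FAC (edgeR adjusted p = 0.92). On log2(TPM + 1), where the median of all genes was −0.17, the Aimp1 difference under FAC was −0.19. Aimp2 (gene 231872, chromosome 5: 143902704 to 143909839), the core scaffold, had 50.3, 49.6 and 52.9 CPM in WT AC, 52.1, 52.5 and 42.7 CPM in WT FAC, 53.1, 62.3 and 62.6 CPM in KO AC, and 77.1, 65.3 and 64.8 CPM in KO FAC. Its KO libraries lay above its WT libraries within each treatment. It was higher by 0.49 ± 0.10 on the log2 scale in KO under FAC (edgeR adjusted p = 0.00109), and under AC the difference was 0.22 (edgeR adjusted p = 0.0875), or 0.30 without KO AC 1 (edgeR adjusted p = 0.0302). Eef1e1 (gene 66143, chromosome 13: 38645691 to 38659028), a small scaffold protein, had 36.9, 36.5 and 33.4 CPM in WT AC, 49.4, 51.4 and 45.7 CPM in WT FAC, 37.9, 43.7 and 42.1 CPM in KO AC, and 55.5, 42.4 and 36.4 CPM in KO FAC. The KO FAC libraries spread widely, from the level of WT AC to above WT FAC. Its genotype differences of 0.21 under AC (edgeR adjusted p = 0.186) and −0.12 under FAC (edgeR adjusted p = 0.421) did not pass the test with all libraries. Without KO FAC 4, its highest KO library, the difference under FAC was −0.30 and passed (edgeR adjusted p = 0.0186). Without KO AC 1 and KO FAC 4 it was 0.27 under AC (edgeR adjusted p = 0.017) and −0.30 under FAC (edgeR adjusted p = 0.00858), and without KO AC 1 and KO FAC 6 it was 0.27 under AC (edgeR adjusted p = 0.0472). The Eef1e1 call thus rests on which KO libraries are kept.

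Among the 12 other cytosolic enzymes, 7 were lower in KO under AC and 7 under FAC, with 0 higher (58.3% under each treatment). Of all tested genes 42.9% and 49.5% were called, 21.2% and 24.9% lower. The median log2 fold change of the 12 was −0.24 and −0.30. Tars (gene 110960, chromosome 15: 11383663 to 11399658), the threonine enzyme with a match just before its start, had 186, 188 and 178 CPM in WT AC, 199.7, 212 and 199.9 CPM in WT FAC, 133, 133 and 152 CPM in KO AC, and 134, 132 and 121 CPM in KO FAC. All KO libraries were below all WT libraries. Tars fell by 0.40 ± 0.07 on the log2 scale under AC (edgeR adjusted p = 0.000373) and by 0.66 ± 0.07 under FAC (edgeR adjusted p = 3.79e-06). Farsb (gene 23874, chromosome 1: 78417958 to 78488897) encodes the beta subunit of the phenylalanine enzyme. It read 88.1, 91.1 and 85.5 CPM in WT AC, 102, 93.5 and 83.9 CPM in WT FAC, 59.0, 69.6 and 68.5 CPM in KO AC, and 68.6, 66.8 and 62.8 CPM in KO FAC. The genotypes were separate, and Farsb fell by 0.43 ± 0.08 on the log2 scale under AC (edgeR adjusted p = 0.00128) and by 0.50 ± 0.08 under FAC (edgeR adjusted p = 0.000291). The partner subunit gene, Farsa, passed the test in neither comparison.

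Aars (gene 234734, chromosome 8: 111027778 to 111055569), the alanine enzyme with a match on either side of its start, had 282, 275 and 277 CPM in WT AC, 318, 323 and 291 CPM in WT FAC, 208, 218 and 239 CPM in KO AC, and 272, 273 and 271 CPM in KO FAC. KO lay below WT under each treatment, by 0.33 ± 0.06 on the log2 scale under AC (edgeR adjusted p = 0.00104) and 0.19 ± 0.06 under FAC (edgeR adjusted p = 0.02). The FAC call was lost without WT FAC 4 or WT FAC 5 (edgeR adjusted p 0.0669 to 0.0816). Cars (gene 27267, chromosome 7: 143557230 to 143600090), for cysteine, had 123, 121 and 129.6 CPM in WT AC, 179, 178 and 164 CPM in WT FAC, 92.1, 103 and 109 CPM in KO AC, and 134, 127 and 124 CPM in KO FAC. Its KO FAC libraries sat at the level of WT AC. Cars fell by 0.30 ± 0.07 on the log2 scale in KO under AC (edgeR adjusted p = 0.0042) and by 0.43 ± 0.07 under FAC (edgeR adjusted p = 0.000216).

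Gars (gene 353172, chromosome 6: 55038001 to 55079504), the glycine enzyme of cytosol and mitochondria, had 278, 287 and 285 CPM in WT AC, 293, 289.7 and 261 CPM in WT FAC, 235, 252 and 269 CPM in KO AC, and 315, 309 and 307 CPM in KO FAC. KO was the lower genotype under AC and had the higher readings under FAC. The AC fall was 0.17 ± 0.06 on the log2 scale (edgeR adjusted p = 0.0456) and was lost without any 1 of WT AC 1, WT AC 2, WT AC 3, KO AC 1 or KO AC 2 (edgeR adjusted p 0.0648 to 0.156), and the FAC difference was 0.14 (edgeR adjusted p = 0.0799). Nars (gene 70223, chromosome 18: 64499655 to 64516515), the asparagine enzyme, had 417, 403 and 398 CPM in WT AC, 508, 517 and 453 CPM in WT FAC, 329.8, 388 and 408 CPM in KO AC, and 467, 399 and 384 CPM in KO FAC. The genotypes overlapped under both treatments. The difference was −0.11 under AC (edgeR adjusted p = 0.325) and −0.24 ± 0.09 under FAC (edgeR adjusted p = 0.0361), a call lost without WT FAC 4, WT FAC 5, KO FAC 5 or KO FAC 6 (edgeR adjusted p 0.1 to 0.125). Sars (gene 20226, chromosome 3: 108424864 to 108445259), for serine, had 272, 289 and 296 CPM in WT AC, 361, 381 and 340.2 CPM in WT FAC, 239.9, 297 and 287 CPM in KO AC, and 413, 345 and 343 CPM in KO FAC. Genotypes overlapped and neither difference passed the test (−0.06 and 0.03, edgeR adjusted p = 0.645 and 0.834).

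Wars for tryptophan fell by 0.37 and 0.43 on the log2 scale under AC and FAC, and Yars for tyrosine fell by 0.30 and 0.36. The Yars call under AC was lost without WT AC 1, WT AC 3, KO AC 1 or KO AC 2 (edgeR adjusted p 0.0547 to 0.0899). Of the 5 genes with a promoter match, 5 were lower in KO under AC and 4 under FAC, against a background of 21.2% and 24.9% of all tested genes. All 5 encode cytosolic enzymes, and of the 8 cytosolic enzymes with a sequence and no match, 2 were lower under each treatment. Cars, Lars, Rars and Wars, lower under both treatments, and Nars, lower under FAC, had no sequence at hand and enter neither count. The counts are of few genes, and the part of the matched letters in the falls was not tested.

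Of the 17 mitochondrial enzymes, 3 were lower and 0 higher in KO under AC, with a median log2 fold change of 0.02. That is 17.6%, against 42.9% of all tested genes called and 21.2% lower. Rars2 and Tars2, for arginine and threonine, were among the 3. Rars2 fell by 0.32 on the log2 scale and Tars2 by 0.31. Both calls were lost when 1 library was left out: Rars2 without WT AC 1, WT AC 2 or KO AC 3 (edgeR adjusted p 0.0514 to 0.0928), and Tars2 without WT AC 3 or KO AC 1 (0.0502 to 0.0747). Under FAC, 4 were lower (Lars2, Mars2, Rars2 and Vars2), Sars2 was higher and the median was −0.16. That is 29.4% called against 49.5% of all tested genes, and 23.5% lower against 24.9%. The shares called were below the background under both treatments, so the counts are no result about the mitochondrial enzymes.

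Lars2 (gene 102436, chromosome 9: 123366927 to 123462675), the mitochondrial leucine enzyme, had 11.9, 11.6 and 12.4 CPM in WT AC, 10.5, 11.2 and 9.69 CPM in WT FAC, 11.1, 9.58 and 11.9 CPM in KO AC, and 6.10, 5.30 and 7.28 CPM in KO FAC. The KO FAC libraries stood apart below the other 9. Its KO difference was −0.14 under AC (edgeR adjusted p = 0.372), and under FAC it fell by 0.74 ± 0.13 on the log2 scale (edgeR adjusted p = 0.000405). Mars2 (gene 212679, chromosome 1: 55237177 to 55240058), for mitochondrial methionine, had 3.27, 4.06 and 4.21 CPM in WT AC, 5.08, 4.87 and 4.36 CPM in WT FAC, 4.30, 4.32 and 4.60 CPM in KO AC, and 3.66, 3.01 and 3.03 CPM in KO FAC. KO was the higher genotype under AC and the lower under FAC, without overlap in either. The difference was 0.19 under AC (edgeR adjusted p = 0.325) and a fall of 0.56 ± 0.16 under FAC (edgeR adjusted p = 0.00896). Vars2 (gene 68915, chromosome 17: 35655634 to 35667639), for mitochondrial valine, had 21.8, 24.2 and 24.6 CPM in WT AC, 20.8, 20.2 and 17.7 CPM in WT FAC, 19.2, 18.8 and 23.0 CPM in KO AC, and 14.9, 15.8 and 13.6 CPM in KO FAC. The KO FAC libraries were the lowest of the 12. Vars2 fell by 0.41 ± 0.11 on the log2 scale in KO under FAC (edgeR adjusted p = 0.00696), and under AC the difference was −0.21 (edgeR adjusted p = 0.123).

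Sars2 (gene 71984, chromosome 7: 28741957 to 28753879), the mitochondrial serine enzyme, went the other way. It had 8.67, 8.65 and 9.52 CPM in WT AC, 8.47, 9.04 and 6.88 CPM in WT FAC, 9.41, 10.7 and 11.9 CPM in KO AC, and 14.2, 15.1 and 12.7 CPM in KO FAC. All KO FAC libraries were above all others. Sars2 was higher by 0.78 ± 0.13 on the log2 scale in KO under FAC (edgeR adjusted p = 0.000215), and by 0.25 under AC, which did not pass the test (edgeR adjusted p = 0.128).

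Without KO AC 1 and KO FAC 4, 14 genes were lower and 3 higher in KO under AC, where 45.7% of all genes tested were called, and 17 were lower and 2 higher under FAC, where 52.6% were. Without KO AC 1 and KO FAC 6, the counts were 13 and 2 under AC (44.3% of all genes) and 14 and 2 under FAC (50.1%). Single libraries also added calls: under AC Cars2 without KO AC 1 and Iars2 and Vars2 without KO AC 3, all lower (edgeR adjusted p 0.0337, 0.0372 and 0.0381), and under FAC Vars, lower, without KO FAC 4 or WT FAC 6 (edgeR adjusted p 0.0118 and 0.0392). Some member exons overlap those of other genes, and whether the counting used strand is not given in the sources used here: Aars shares 1326 bases with Exosc6 on its own strand, and Aimp2 shares 487 bases with Eif2ak1, Farsb 248 with Sgpp2 and Vars2 339 with Gm20483 (GENCODE M21).

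The second comparison was FAC against AC in WT cells. Cars, Eef1e1, Sars, Rars and Nars rose and the mitochondrial alanine enzyme Aars2 fell. These 6 genes are 15% of the 40 (5 higher, 1 lower), near the background of 17.2% of all tested genes (8.7% higher, 8.55% lower), and the median log2 fold change of the 40 was −0.02 against −0.00. By role, 1 of 8 complex enzymes, 1 of 3 scaffolds and 3 of 12 other cytosolic enzymes rose, and 1 of 17 mitochondrial enzymes fell. Libraries of the 2 treatments did not overlap for 20 of the 40 genes (11 higher and 9 lower, 50% against 43.2%). The share of members called is therefore no result about the group, and the single genes carry the description.

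Cars rose by 0.48 ± 0.07 on the log2 scale (edgeR adjusted p = 0.000524) and Rars by 0.32 ± 0.07 (edgeR adjusted p = 0.00666), and these calls held without any 1 library. For both genes all WT FAC libraries were above all WT AC libraries. Eef1e1 rose by 0.46 ± 0.12 (edgeR adjusted p = 0.0224), Sars by 0.34 ± 0.09 (edgeR adjusted p = 0.0213) and Nars by 0.28 ± 0.09 (edgeR adjusted p = 0.0452). Aars2 (gene 224805, chromosome 17: 45503515 to 45520843) had 17.8, 17.5 and 18.002 CPM in WT AC, 13.9, 14.8 and 14.6 CPM in WT FAC, 18.3, 16.8 and 19.4 CPM in KO AC, and 15.4, 13.2 and 15.5 CPM in KO FAC. All 6 FAC libraries were below all 6 AC libraries, and the fall in WT was 0.30 ± 0.09 on the log2 scale (edgeR adjusted p = 0.038).

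These smaller calls depended on single libraries. Eef1e1 was lost without WT AC 3, WT FAC 4 or WT FAC 5 (edgeR adjusted p 0.0672 to 0.0912), Sars without WT AC 1, WT FAC 4 or WT FAC 5 (0.0617 to 0.0898), Nars without any 1 of the libraries but WT FAC 6 (0.0773 to 0.154), and Aars2 without any 1 of the 6 (0.074 to 0.128). The count of 6 fell to 3 without WT AC 1 or WT AC 3 and to 2 without WT FAC 4 or WT FAC 5. Aimp1 at 0.17 (edgeR adjusted p = 0.105) and Aimp2 at −0.05 (edgeR adjusted p = 0.766) did not pass the test. With the authors' TPM values on the log2(TPM + 1) scale, the median of all genes moved to −0.10 and 1 member was higher and 4 lower, and on log2(FPKM + 1) 4 were higher and 2 lower.

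In KO cells FAC raised Sars, Sars2, Rars, Cars, Aars and Gars and lowered Lars2, Vars2, Mars2 and Aars2. These 10 genes are 25% of the 40 (6 higher, 4 lower), against 29.6% of all tested genes (15% higher, 14.6% lower). The median log2 fold change of the 40 was 0.01 against −0.00 for all tested genes. Of the 12 other cytosolic enzymes 4 rose and 0 fell, and of the 8 complex enzymes 1 rose and 0 fell, while of the 17 mitochondrial enzymes 1 rose and 4 fell. The medians of these 3 sets were 0.07, −0.01 and −0.17, and 0 of the 3 scaffolds passed the test. Libraries of the 2 treatments did not overlap for 14 of the 40 genes (8 higher and 6 lower, 35% against 38.8%).

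**Figure D4:**
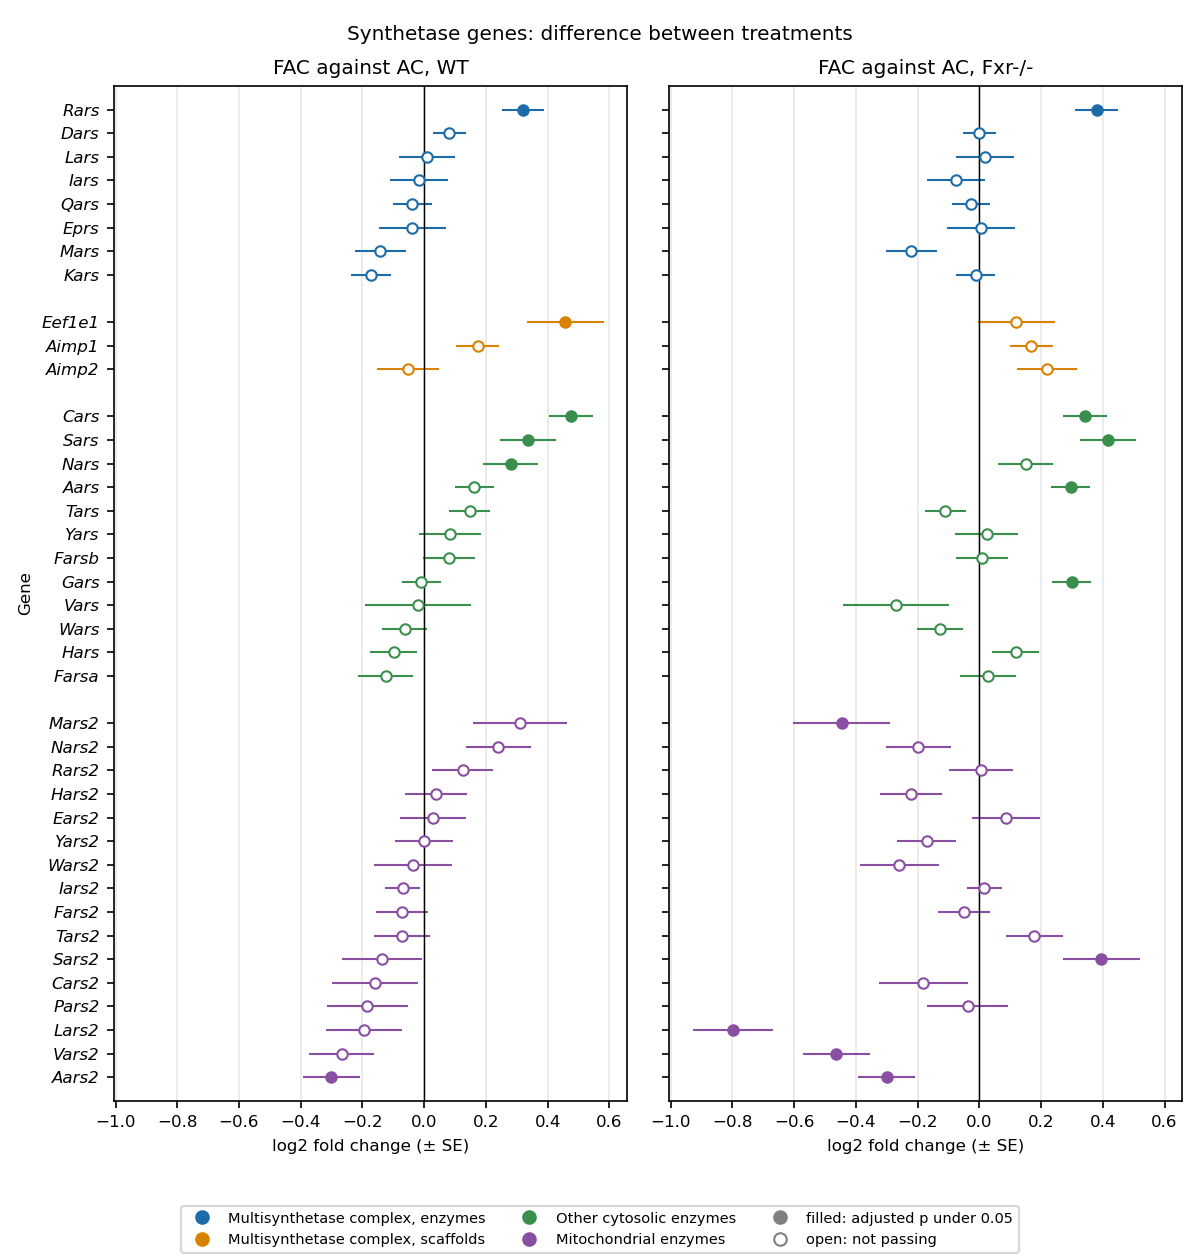
Log2 fold change of FAC against AC for each reported gene, ordered by role, in WT and in KO cells; bars are ± 1 SE and filled points have an edgeR adjusted p under 0.05. Cars, Rars and Sars are higher in both genotypes and Aars2 is lower in both, while Lars2 is the lowest point in KO at −0.80.

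Sars rose by 0.42 ± 0.09 on the log2 scale in KO cells (edgeR adjusted p = 0.00417), Rars by 0.38 ± 0.07 (edgeR adjusted p = 0.00146) and Cars by 0.34 ± 0.07 (edgeR adjusted p = 0.00311). For each of these 3 genes all KO FAC libraries were above all KO AC libraries. Aars rose by 0.30 ± 0.06 (edgeR adjusted p = 0.00357) and Gars by 0.30 ± 0.06 (edgeR adjusted p = 0.00355), again without overlap. Both carry a promoter match. The other 3 genes with a match, Iars, Tars and Yars, did not pass the test. Sars had no match, and Rars and Cars had no sequence at hand. The part of the matched letters in these rises was not tested. In WT cells Aars differed by 0.16 (edgeR adjusted p = 0.0907) and Gars by −0.01 (edgeR adjusted p = 0.938). Sars2 rose by 0.40 ± 0.13 (edgeR adjusted p = 0.0296), a call lost without KO AC 1, KO AC 2 or KO FAC 5 (0.0699 to 0.11).

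Lars2 fell by 0.80 ± 0.13 on the log2 scale in KO cells (edgeR adjusted p = 0.000718) and Vars2 by 0.46 ± 0.11 (edgeR adjusted p = 0.00652). Both had every KO FAC library below every KO AC library. Mars2 fell by 0.45 ± 0.16 (edgeR adjusted p = 0.0476), lost without any 1 of the libraries but KO FAC 4 (0.065 to 0.137), and Aars2 by 0.30 ± 0.09 (edgeR adjusted p = 0.0267), lost without KO AC 3 or KO FAC 5 (0.105 to 0.115). Aimp1 at 0.17 (edgeR adjusted p = 0.0859), Aimp2 at 0.22 (edgeR adjusted p = 0.11), Eef1e1 at 0.12 (edgeR adjusted p = 0.498) and Nars at 0.15 (edgeR adjusted p = 0.219) did not pass the test. Without KO AC 1 and KO FAC 4 the counts were 5 higher and 7 lower, with 38.6% of all genes called, and without KO AC 1 and KO FAC 6 they were 5 and 4, with 30.5%. Mars, at −0.22 with all libraries (edgeR adjusted p = 0.0578), was called lower without KO FAC 4 (−0.32, edgeR adjusted p = 0.00423) and without KO AC 1 (−0.25, edgeR adjusted p = 0.0467). Aimp1 was called higher without KO AC 2, Hars2 lower without KO FAC 6 and Wars2 lower without KO AC 1 (edgeR adjusted p 0.0351, 0.0219 and 0.0468). With log2(TPM + 1) the median of all genes was −0.15 and 0 members were higher and 14 lower, and with log2(FPKM + 1) 5 were higher and 8 lower.

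Markers moved with FAC too. In WT cells 5 of the 8 hepatocyte markers were higher and 1 lower, and in KO cells all 8 were higher, with Alb higher by 0.45 ± 0.04 and 0.27 ± 0.04 on the log2 scale. Of the 4 macrophage markers tested, Cd68 was higher in both genotypes, and Adgre1 and Marco were lower in WT, by 1.64 ± 0.29 and 1.70 ± 0.38 on the log2 scale. The listed macrophage genes summed to 336 to 394 FPKM in WT AC, 599.7 to 647 FPKM in WT FAC, 493 to 609.8 FPKM in KO AC and 626 to 714 FPKM in KO FAC. Nearly all of that sum was Cd68, which averaged 367, 618, 564 and 679 FPKM in the same order. Adgre1 and Marco averaged at most 0.783 and 1.27 FPKM in any group, so the sum does not describe the other listed genes. Of the 5 endothelial markers tested, Pecam1 and Cdh5 were higher in WT, and of the 3 cholangiocyte markers tested, Krt19 was higher in KO by 1.20 ± 0.22. Their part in the synthetase values was not tested.

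Whether FAC acted differently in the 2 genotypes was tested as the difference of the FAC effects, KO minus WT. None of the 40 genes passed (edgeR, 0 higher and 0 lower), against 3.15% of all tested genes (1.87% higher and 1.28% lower). At an unadjusted p under 0.05 there were 6, of which 2 were higher and 4 lower, and DESeq2 called 1, Gars. The median of the 40 was −0.01, as for all tested genes. Mars2 had the largest difference, −0.76 ± 0.22 on the log2 scale (edgeR adjusted p = 0.0805), with FAC effects of 0.31 in WT and −0.45 in KO. Lars2 differed by −0.60 ± 0.18 (edgeR adjusted p = 0.0887), Sars2 by 0.53 ± 0.18 (edgeR adjusted p = 0.126) and Gars by 0.31 ± 0.09 (edgeR adjusted p = 0.0805). The scaffolds differed by −0.01 for Aimp1 (edgeR adjusted p = 0.985), 0.27 for Aimp2 (edgeR adjusted p = 0.31) and −0.34 for Eef1e1 (edgeR adjusted p = 0.317). Without KO AC 1 and KO FAC 4, 6 genes passed, all lower in KO minus WT (Eef1e1, Mars2, Nars, Nars2, Tars and Vars), but 15.5% of all genes were called in that setting, so 6 of 40 is at the background share. Leaving out KO FAC 4 alone gave 1, Eef1e1, and leaving out KO AC 1 and KO FAC 6 gave 1, Lars2, with 4.42% of all genes called.

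Side by side, 5 genes were called in opposite directions by genotype and by FAC: Aars, Cars, Gars, Nars and Rars were each lower in KO in at least 1 treatment and higher with FAC in at least 1 genotype. These comparisons share libraries, so the pattern is given as values only. Over the 5 contrasts, 23 of the 40 genes (57.5%) were called at least once and 17 never, against 70.0% of all tested genes called at least once.

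The other genes of the tRNA pathway were read from lists. Of 22 genes of tRNA maturation and export, 5 were lower and 0 higher in KO under AC (22.7% against 42.9% of all tested genes). Under FAC 7 were lower and 3 higher (45.5% against 49.5%). The medians of the 22 were −0.04 and −0.10. Ssb, the La protein that protects new tRNA ends, averaged 108 CPM in WT AC and 62.5 CPM in KO AC and fell by 0.79 ± 0.13 on the log2 scale (edgeR adjusted p = 0.000403), and Pop1, a subunit of the RNase P that trims the leading end, fell by 0.74 ± 0.12 (edgeR adjusted p = 0.000248). Of 34 tRNA modification genes, 9 were lower and 0 higher under AC (26.5% against 42.9%). Under FAC 14 were lower and 0 higher (41.2% against 49.5%), and the medians of the 34 were −0.09 and −0.18. Elp2, a subunit of the Elongator complex that modifies wobble uridines, fell by 0.57 on the log2 scale under AC and by 0.67 under FAC, and Pus3, a pseudouridine synthase, fell by 1.07 under FAC.

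Of 11 partners of mitochondrial charging and translation, 3 were lower under AC and 6 under FAC, with 0 higher (27.3% against 42.9%, and 54.5% against 49.5%) and medians of −0.07 and −0.35. Gatb, a subunit of the amidotransferase that makes glutaminyl-tRNA in mitochondria, fell by 0.65 ± 0.09 on the log2 scale under AC (edgeR adjusted p = 8.45e-05) and by 0.81 ± 0.09 under FAC (edgeR adjusted p = 1.21e-05). Mtif2, a mitochondrial initiation factor, fell by 0.46 and 0.92. Of 10 elongation factor genes, 6 were lower in KO under AC (60% against 42.9%), and 2 were lower and 2 higher under FAC (40% against 49.5%), with medians of −0.18 and −0.02. With FAC in KO cells 5 of the 10 rose and 0 fell (50% against 29.6%), led by Eef1g at 0.30. In WT cells 0 rose and 1 fell with FAC (10% against 17.2%). None of the 10 passed for the difference of FAC effects, against 3.15% of all tested genes. Of 9 synthetase relatives and editing enzymes, 3 were higher and 0 lower in KO under AC (33.3% against 42.9%) and 3 higher and 1 lower under FAC (44.4% against 49.5%), led under AC by Prorsd1 at 0.62 ± 0.14 (edgeR adjusted p = 0.00273), the relative that edits mischarged proline tRNA.

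The integrated stress response list held 33 tested genes. With FAC it had 14 higher and 0 lower in WT (42.4% against 17.2%) and 13 higher and 1 lower in KO (42.4% against 29.6%), with medians of 0.23 and 0.26. Ddit3, the stress factor CHOP, averaged 20.5 ± 2.77 CPM (SD, n = 3) in WT AC, 71.5 ± 2.84 in WT FAC, 22.1 ± 0.553 in KO AC and 35.4 ± 0.629 in KO FAC. It rose by 1.80 ± 0.09 on the log2 scale in WT and by 0.68 ± 0.09 in KO, and the difference was −1.13 ± 0.13 (edgeR adjusted p = 0.000558). The exons of Ddit3 overlap those of Mars by 68 bases, and Mars passed the test in none of the 5 contrasts with all libraries. Atf4 itself rose with FAC by 0.37 ± 0.09 in WT (edgeR adjusted p = 0.0106) and by 0.28 ± 0.09 in KO (edgeR adjusted p = 0.0269).

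Between genotypes the stress list had no common direction. Under AC 9 of the 33 were higher and 11 lower in KO (60.6% against 42.9%), and under FAC 10 and 10 (60.6% against 49.5%). Atf4 was higher in KO by 0.48 ± 0.09 on the log2 scale under AC (edgeR adjusted p = 0.000743) and by 0.39 ± 0.09 under FAC (edgeR adjusted p = 0.00246). Phgdh, the first enzyme of serine synthesis, averaged 71.6 CPM in WT AC and 26.3 CPM in KO AC and fell by 1.44 ± 0.07 (edgeR adjusted p = 2.72e-09). The synthetases commonly listed as Atf4 targets are 12 of the 40: Aars, Cars, Eprs, Gars, Iars, Lars, Mars, Nars, Sars, Tars, Wars and Yars. Under each treatment 9 of them were lower in KO and 0 higher, with medians of the 12 at −0.32 and −0.40. That is 75%, against 42.9% and 49.5% of all tested genes called and 21.2% and 24.9% lower. Mars, Nars and Sars did not pass under AC, nor Gars, Mars and Sars under FAC. With FAC 3 of the 12 rose in WT and 4 in KO, and 0 fell. In WT that is 25%, against 17.2% of all tested genes called and 8.7% higher. In KO it is 33.3%, against 29.6% called and 15% higher. These shares rest on few genes, and the list was chosen with earlier results of these data known.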

How the data were processed

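RNA-seq libraries (BGISEQ-500, Trizol RNA) were quantified by the authors with RSEM against mm10 / GRCm38.p6, per the submitters' processing notes; tool versions, annotation release and strand setting are not given in the sources used here. Deposited in one table were estimated counts per gene and library, of which 7.89% were not whole and were rounded here, with FPKM and TPM values made by the authors. Of 16728 gene IDs, 16629 matched the reference annotation; 28 symbols had been turned into dates or numbers and 22 were restored by ID. Counts were fitted over all 4 groups with edgeR 4.0.16 in R 4.3.3 (TMM scaling, filterByExpr with a minimum count of 10, robust quasi-likelihood test, 8 residual degrees of freedom, biological coefficient of variation 10.8%), and p-values were Benjamini-Hochberg adjusted over 12275 genes with calls at 0.05. The SE of a log2 fold change was taken from the F statistic. Alternatives used DESeq2 1.42.0, limma 3.58.1 on log2(FPKM + 1) and log2(TPM + 1), other filters and scaling, a replicate block and left-out libraries. Scripts were tested on simulated counts. Python 3.11.15, pandas 2.3.3 and matplotlib 3.10.9 were used for tables and figures.

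Genes described one by one were, in each comparison, the called members that changed most (at most 6 per direction), the 3 scaffold genes, the members with the highest and lowest level, those called in opposite directions in different comparisons, and those whose call hangs on 1 library. The others are given by count. Of other lists, up to 3 called genes were eligible; Atf4, Ddit3 and Alb values were also printed beside their lists. The members, lists and tests were chosen with earlier results of these data known. Values of 1 member and of 1 gene of another list are not reported here one by one; both are in the counts and medians.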

Additional observations from a re-analysis of the deposited data

How the results depend on the processing

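With 3 libraries a group and 16464494 to 18335700 reads a library, the SE of a member's log2 fold change between 2 groups ran from 0.05 to 0.17. Leaving out 1 library at a time gave 2 to 5 members called for FAC in WT against 6, 7 to 11 for FAC in KO against 10, 11 to 14 for KO against WT under AC against 14, and 15 to 19 under FAC against 17. The difference of FAC effects, 0 in edgeR, gave 0 to 1 in the same exercise, 1 with DESeq2, 1 with limma on log2(FPKM + 1), 1 with log2(TPM + 1), 1 without the trended and robust dispersion, 1 with KO AC 1 and KO FAC 6 left out and 6 with KO AC 1 and KO FAC 4 left out, where the share of all genes called was 15.5% against 3.15% with all libraries. KO against WT under FAC gave 30 members with log2(TPM + 1), 2 higher and 28 lower, where the median of all genes moved to −0.17. In that setting Aimp1 turned from 0.01 to −0.19 on the log2 scale. The cause of these changes was not tested. WT and KO libraries share replicate numbers, and the labels do not say whether the numbers pair them. Same-number correlations were −0.142, −0.0856, 0.00809, 0.104, −0.103 and 0.208, and those of other pairs ran from −0.259 to 0.22. With 3 libraries a group these values cannot decide whether libraries are paired. With the replicate block the counts were 13 under AC, where Gars was lost, 18 under FAC, where Vars was gained, and 0 for the difference.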
